A study of Homo sapiens with 9 samples.

Results

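Cancer-testis antigens are proteins made in the male germ line and, in some tumours, outside it. The genes described here are the members of 12 such families in the MDA-MB-231 breast cancer line, matched by symbol: the MAGEA, MAGEB and MAGEC genes, SPANX, GAGE, XAGE, PAGE, SSX, CT45A, CTAG, CT83 and PRAME. The rule matched 76 of the 58887 rows of the count table. Near-identical copies were added up, which left 46 units, and 9 of these passed the filter on low counts among 12999 features in all.

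The RNA-seq libraries came from the parental line (Par), a claudin-low, triple-negative human breast cancer line grown in culture, and from 2 sub-populations derived from it by selection in mice, LM2 for colonization of the lung and BrM2 for colonization of the brain. Each line had 3 libraries, described as biological replicates taken at different passages, so the replicates are cultures of the same sub-population and not independent selections. No treatment separates the lines, and all came from cells in culture rather than from metastases. The libraries held 14371867 to 24511790 counts on genes, and the smallest total was that of BrM2 replicate 1. Levels are given as CPM, counts scaled to a common library size by the TMM method of edgeR, and 3 counts in a library, used here as the floor, correspond to 0.115 to 0.221 CPM.

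Most of these genes lie on the X chromosome in clusters of recent copies. In somatic cells their promoters are typically methylated and silent, and loss of that methylation in tumours can switch them on. MAGE proteins share a homology domain through which they bind RING-type ubiquitin ligases, SPANX proteins belong to the sperm nucleus, SSX proteins act as transcriptional repressors, and the GAGE, XAGE and PAGE proteins are small acidic proteins of a related family. Many are studied as targets of immunotherapy because the testis does not present them to T cells.

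By position in GRCh38.p14, taken from RefSeq for 75 of the 76 rows, 74 were on the X chromosome, and PRAME was on chromosome 22. The start regions of genes that stand for the different patterns among the lines are shown first. Each sequence covers 300 bases, 250 before and 50 after the RefSeq start, 5′ to 3′ on the strand of the gene, and the capitals mark CG dinucleotides, the sites at which DNA can be methylated. MAGEA6 (chrX:152769640-152769939, minus strand) and MAGEA3 (chrX:152698544-152698843, plus strand) had the same sequence over this window, 300 of 300 bases, so it is printed once for the pair that rose in BrM2. MAGEB2 (chrX:30215313-30215612, plus strand) is the gene that rose in LM2. SPANXB1 (chrX:141002344-141002643, plus strand) had the highest level, and SPANXD (chrX:141698690-141698989, minus strand) is a copy with no count in Par. PAGE5 (chrX:55220096-55220395, plus strand) and MAGEA11 (chrX:149711810-149712109, plus strand) also rose in BrM2, the MAGEA11 window being that of a RefSeq start inside the gene (chrX:149688193-149717268) and not of its outermost start, while CT83 (chrX:116462927-116463226, minus strand) was lower there.
MAGEA3 and MAGEA6: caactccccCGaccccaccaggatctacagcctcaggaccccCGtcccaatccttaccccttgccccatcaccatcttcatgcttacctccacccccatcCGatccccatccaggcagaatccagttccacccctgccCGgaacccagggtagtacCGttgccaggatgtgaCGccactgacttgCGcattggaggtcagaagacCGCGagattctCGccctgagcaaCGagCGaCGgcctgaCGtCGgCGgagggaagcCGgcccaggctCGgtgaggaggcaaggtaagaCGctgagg
MAGEB2: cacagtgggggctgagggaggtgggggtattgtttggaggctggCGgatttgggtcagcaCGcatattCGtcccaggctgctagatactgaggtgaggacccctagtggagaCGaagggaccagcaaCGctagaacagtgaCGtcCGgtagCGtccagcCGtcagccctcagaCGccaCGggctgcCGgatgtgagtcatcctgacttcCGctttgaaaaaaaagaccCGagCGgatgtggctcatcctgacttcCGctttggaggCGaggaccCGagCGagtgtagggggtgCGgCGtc
SPANXB1: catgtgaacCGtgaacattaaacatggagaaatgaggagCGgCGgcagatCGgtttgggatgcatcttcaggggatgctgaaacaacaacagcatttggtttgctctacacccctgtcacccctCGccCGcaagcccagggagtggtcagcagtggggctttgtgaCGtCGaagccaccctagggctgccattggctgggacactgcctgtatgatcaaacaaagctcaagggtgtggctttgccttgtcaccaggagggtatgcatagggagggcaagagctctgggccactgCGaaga
SPANXD: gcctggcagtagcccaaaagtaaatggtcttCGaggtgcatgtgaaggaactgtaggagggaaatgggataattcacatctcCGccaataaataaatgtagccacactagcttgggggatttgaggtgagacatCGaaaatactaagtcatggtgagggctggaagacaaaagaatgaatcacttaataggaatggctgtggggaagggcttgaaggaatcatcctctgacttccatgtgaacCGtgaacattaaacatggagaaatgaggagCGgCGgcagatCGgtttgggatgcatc
PAGE5: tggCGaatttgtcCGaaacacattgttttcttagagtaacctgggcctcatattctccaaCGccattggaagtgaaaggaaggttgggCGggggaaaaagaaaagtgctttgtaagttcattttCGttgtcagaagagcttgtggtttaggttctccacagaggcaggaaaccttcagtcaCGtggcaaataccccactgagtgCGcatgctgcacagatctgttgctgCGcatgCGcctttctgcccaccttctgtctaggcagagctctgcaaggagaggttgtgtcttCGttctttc
MAGEA11: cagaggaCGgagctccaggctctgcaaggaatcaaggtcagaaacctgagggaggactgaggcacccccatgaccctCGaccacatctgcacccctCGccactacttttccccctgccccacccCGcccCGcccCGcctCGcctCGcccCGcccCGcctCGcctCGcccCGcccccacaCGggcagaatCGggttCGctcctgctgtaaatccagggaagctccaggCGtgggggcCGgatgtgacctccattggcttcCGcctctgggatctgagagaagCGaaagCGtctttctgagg
CT83: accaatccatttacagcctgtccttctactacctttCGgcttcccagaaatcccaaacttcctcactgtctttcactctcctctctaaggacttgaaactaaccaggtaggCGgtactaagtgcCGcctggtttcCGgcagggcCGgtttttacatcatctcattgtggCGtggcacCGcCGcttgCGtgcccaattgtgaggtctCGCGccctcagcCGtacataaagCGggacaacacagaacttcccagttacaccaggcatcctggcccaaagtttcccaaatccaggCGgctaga

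The window of MAGEA3 and MAGEA6 held 19 CG dinucleotides, those of MAGEB2 and MAGEA11 21 each, that of CT83 14, that of PAGE5 10, that of SPANXB1 9 and that of SPANXD 7. Across 27305 RefSeq start regions of the same length the median was 14, and across the 61 member regions that could be matched it was 12. The last 66 bases of the SPANXD window were the first 66 of the SPANXB1 window, since the annotated starts of these copies lie at different points of the same duplicated sequence. Of the 15 matched regions of members with at least 10 counts in a library, 0 held CCGGAAG on either strand, 4 (26.7%) held GGGCGG and 4 (26.7%) held GCGGGA. Of all start regions, 10.7%, 44.6% and 26.8% held these 3 motifs. They are fixed strings that stand for an ETS site, a GC box and an E2F6 site. The last 2 can overlap, since both hold GCGG, and a match in these letters is a description of the sequence only. Variants of the strings were not counted, so the 0 for CCGGAAG does not show that the 15 regions held no ETS site. The windows of MAGEB2 and MAGEA11, for example, hold CCGGATG.

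Most of the 76 rows were not detected. A total of 44 rows had no count in any of the 9 libraries, 16 had between 1 and 9 counts in their highest library, and 16 reached at least 10 counts. PRAME was at 0 in all libraries, as were 12 of 13 GAGE rows, 8 of 9 CT45A rows, 8 of 13 MAGEA rows and 5 of 6 SSX rows. A count of 0 in a library allows a level of up to 0.115 to 0.221 CPM, a limit that covers counting error only. This limit does not hold for near-identical copies, since reads that map to several places are by default not counted. All 50-base stretches of MAGEA9, CTAG1B and GAGE12C occur in another gene, as do 99.6% of those of SSX2. For such copies a count of 0 does not show that the gene was silent. The 16 rows that reached 10 counts belonged to 9 of the families, with 4 MAGEA, 3 SPANX, 2 MAGEC, 2 XAGE and 1 each of MAGEB, PAGE, SSX, CTAG and CT83.

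The lines differed in how much of this RNA they held. The 76 rows together reached 67.6, 71.8 and 75.0 CPM in the Par libraries, 71.2, 59.6 and 58.2 CPM in the LM2 libraries and 371, 414 and 415 CPM in the BrM2 libraries. The BrM2 mean was 5.59 times the Par mean, while the LM2 mean was 0.882 times it, and the libraries of LM2 overlapped those of Par. The number of rows with at least 10 counts was 6 to 7 in Par libraries, 4 to 6 in LM2 libraries and 14 in each BrM2 library. In bulk RNA, more cells that express a gene and more RNA per cell cannot be told apart.

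SPANXB1 dominated the sum in Par, with 75.3% ± 4.72 of it (SD, n = 3), and held 45.1% ± 6.80 in LM2 and 57.1% ± 5.16 in BrM2. Without SPANXB1 the sum was 17.5 ± 2.44 CPM in Par, 34.9 ± 8.20 in LM2 and 171 ± 9.26 in BrM2 (SD, n = 3). The second contributor differed between the lines. It was CT83 in Par (11.6% ± 1.68), MAGEB2 in LM2 (35.4% ± 6.996) and MAGEA6 in BrM2 (19.9% ± 1.19).

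**Figure D1:**
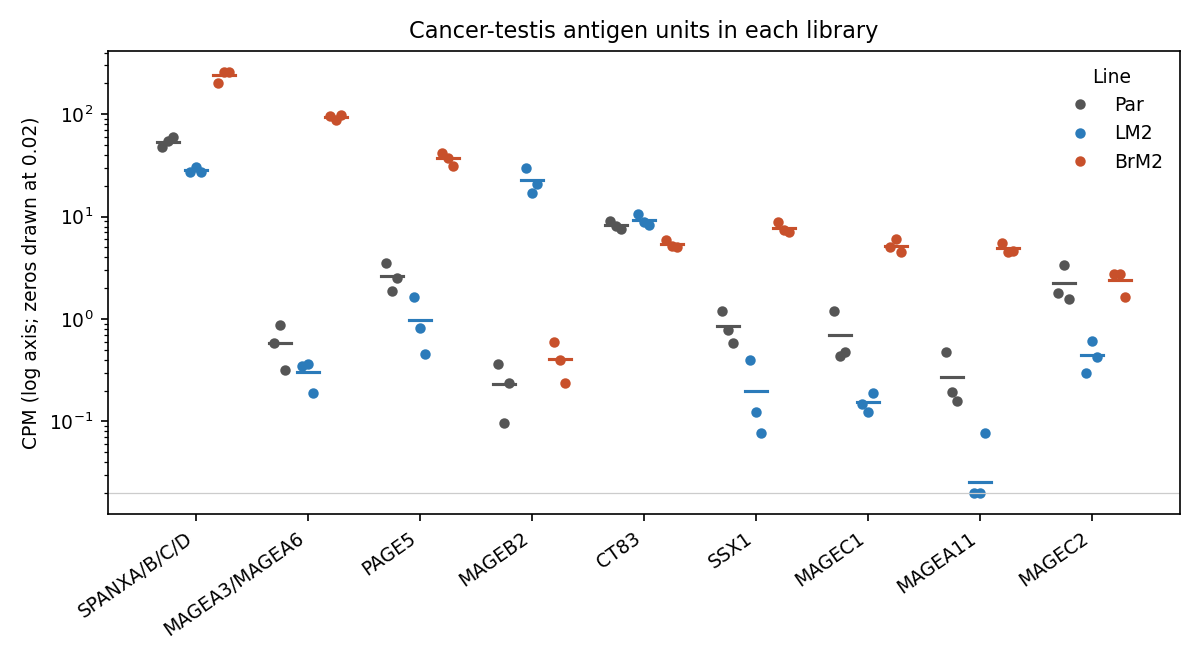
CPM of the 9 units past the filter on a logarithmic axis, with 3 points per line for the libraries in the order of their replicate numbers and a bar at the mean, zeros being drawn at 0.02. The BrM2 points lie above those of both other lines for 6 units, the LM2 points are highest for MAGEB2, and the BrM2 points are lowest for CT83.

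Differential expression was tested in a model of the 3 lines over all 9 libraries with the quasi-likelihood test of edgeR, without a block for the replicate number. The p-values were adjusted over the 12999 features. Same-numbered libraries of the 3 lines shared deviations from the means of their lines, and leaving replicate 1 out of every line raised the number of features called in LM2 against Par from 1126 to 4300. Without replicate 1, 5 units passed in LM2 against Par, 7 in BrM2 against Par, where 5246 features did, and 9 in BrM2 against LM2, where 4238 did. In LM2 against Par, 5 of the 9 units passed an adjusted p of 0.05, where 8.66% of all features did. Of these, 1 was higher and 4 were lower, where 4.16% of all features were called higher and 4.5% lower. With the replicate number as a block the lower ones became 6, at a background of 34.5% in either direction and 19.1% lower. In BrM2 against Par, 6 of 9 passed and all 6 were higher, where 13.2% of all features passed and 6.23% passed as higher, 6.99% as lower. The block added 1 lower unit, at a background of 42.7%. In BrM2 against LM2, 9 of 9 passed with and without the block, 7 higher and 2 lower. The background was 8.07% without the block, 4.07% higher and 4% lower, and 37.5% with it, 17.9% higher and 19.7% lower. The libraries of the lines did not overlap in 7, 7 and 9 of the 9 units in the 3 comparisons, where this held for 25.1%, 31.3% and 23.1% of all features. The median log2 fold change of the 9 units was -1.46, 2.89 and 5.02 in the 3 comparisons, and that of all features was 0.01, -0.02 and -0.03. Both sub-populations are compared with the same Par libraries, so the first 2 sets of values are not independent of each other. The filter keeps a unit by its largest library. MAGEA3 with MAGEA6, SSX1, MAGEC1 and MAGEA11 passed it through BrM2 libraries alone, and MAGEB2 through LM2 libraries alone. The calls, non-overlaps and medians of the units are therefore partly set by the filter and are no independent support.

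**Figure D2:**
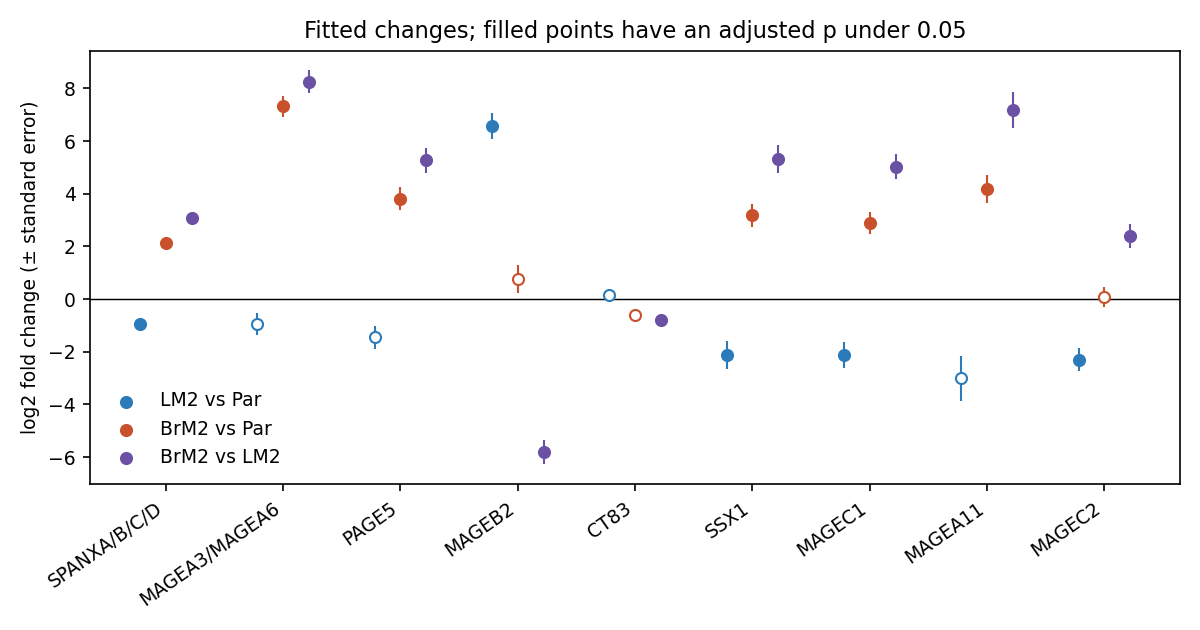
Fitted log2 fold change of each unit with its standard error in LM2 against Par, BrM2 against Par and BrM2 against LM2, from the edgeR model over 9 libraries, with filled points where the adjusted p is under 0.05. Of the LM2 points, MAGEB2 is the 1 filled point above 0 and 4 filled points lie below it, while the 6 filled points of BrM2 against Par are all above 0.

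The MAGEA genes showed the largest rise. MAGEA3 and MAGEA6, whose proteins bind the ubiquitin ligase TRIM28, were counted together as 11, 18 and 8 reads in the Par libraries, 7, 9 and 5 in LM2 and 1290, 1977 and 2032 in BrM2. The BrM2 level of 87.3 to 97.4 CPM stood against 0.314 to 0.871 CPM in Par. The change in BrM2 was 7.32 ± 0.40 on the log2 scale (SE, adjusted p = 2.93e-05 by edgeR), and LM2 and Par libraries overlapped (log2 fold change -0.94 ± 0.41, adjusted p = 0.235).

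Both copies carried the rise. MAGEA6 had 7, 4 and 4 counts in Par, 2, 6 and 5 in LM2 and 1056, 1748 and 1744 in BrM2, and MAGEA3 had 4, 14 and 4, then 5, 3 and 0, then 234, 229 and 288. In BrM2 the reads assigned to MAGEA6 were 4.51, 7.63 and 6.06 times those assigned to MAGEA3 in the 3 libraries. Of all stretches of 50 bases in the MAGEA6 transcripts, 59.7% also occur in MAGEA3, and 50.7% of those of MAGEA3 occur in MAGEA6, so the division between the copies is uncertain and rests on the sequence in which they differ.

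MAGEA11, a coregulator of the androgen receptor, had 9, 4 and 4 counts in Par, 0, 0 and 2 in LM2 and 75, 103 and 97 in BrM2. It rose in BrM2 by 4.17 ± 0.53 on the log2 scale (SE, adjusted p = 0.0011 by edgeR). LM2 held so few reads that its level was 9.23-fold lower than Par by counts, with a 95% exact counting interval of 2.19 to 82.4. The adjusted p of that comparison was 0.0684, against 0.0239 with the replicate block and 0.0467 without LM2 replicate 3, the library that held both reads. MAGEA12, below the filter, had 4, 3 and 8 counts in Par, 0 in each LM2 library and 11, 15 and 13 in BrM2. Its BrM2 level was 2.97-fold higher than Par by counts (95% counting interval 1.60 to 5.80) and at least 5.43-fold higher than LM2, computed from the floor of 3 counts per library. The remaining MAGEA rows had at most 2 counts in a library, MAGEA1 being the 1 detected.

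MAGEB2 moved the other way between the sub-populations. It lies in the MAGEB cluster on the short arm of the X chromosome (chrX:30215563-30220089), apart from the MAGEA genes near the end of the long arm. It had 7, 2 and 6 counts in Par, 607, 414 and 538 in LM2 and 8, 9 and 5 in BrM2, so the LM2 libraries stood far above all 6 others. The rise in LM2 was 6.57 ± 0.49 on the log2 scale (SE, adjusted p = 0.000123 by edgeR). BrM2 was lower than LM2 by a log2 fold change of -5.81 ± 0.47 (adjusted p = 0.000179), and BrM2 and Par overlapped (0.76 ± 0.54, adjusted p = 0.461). None of its 50-base stretches occurs in another gene.

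The rest of the MAGEB cluster did not follow it in LM2. MAGEB1 (chrX:30243731-30252040), the detected member nearest to MAGEB2, had 0 counts in all Par and LM2 libraries and 8, 6 and 2 in BrM2, at least 2.26-fold above Par. The other MAGEB rows had at most 4 counts in any library.

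The MAGEC genes fell in LM2 and parted in BrM2. MAGEC1 had 23, 9 and 12 counts in Par, 3, 3 and 5 in LM2 and 68, 136 and 95 in BrM2. It rose in BrM2 by 2.89 ± 0.40 on the log2 scale (SE, adjusted p = 0.00184 by edgeR) and was lower in LM2 by -2.12 ± 0.50 (adjusted p = 0.0316). MAGEC2, which like MAGEA3 binds TRIM28, had 34, 70 and 40 counts in Par, 6, 15 and 11 in LM2 and 37, 63 and 34 in BrM2. MAGEC2 was lower in LM2 than in Par by -2.31 ± 0.44 (adjusted p = 0.0115), but the libraries of BrM2 and Par overlapped, with a log2 fold change of 0.08 ± 0.39 (adjusted p = 0.947). The 2 genes thus shared a direction in LM2 while MAGEC1 alone passed the test in BrM2 against Par. Their difference in BrM2 was not tested. MAGEC3 had at most 6 counts.

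The calls of MAGEC1 and MAGEC2 in LM2 against Par rest on few LM2 reads and changed with the libraries used. With the replicate block the adjusted p by edgeR was 0.0106 for MAGEC1 and 0.000339 for MAGEC2. Without LM2 replicate 3, the adjusted p of MAGEC2 was 0.0546. That of MAGEC1 passed 0.05 in 3 of the 9 fits that leave out 1 library and reached 0.130 without LM2 replicate 2. Without Par replicate 1, 0.0662 was reached, without LM2 replicate 1, 0.0666, without LM2 replicate 3, 0.0836, without BrM2 replicate 2, 0.0567, and without BrM2 replicate 3, 0.0572.

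SPANX genes, which encode sperm nuclear proteins, had the highest counts of all families. The 5 copies together had 907, 1125 and 1526 counts in Par, 545, 755 and 709 in LM2 and 2706, 5840 and 5407 in BrM2. In CPM this was 47.6, 54.5 and 59.99, then 27.0, 30.8 and 27.2, then 200, 258 and 259, so the 3 lines did not overlap. The group rose in BrM2 by 2.14 ± 0.19 on the log2 scale (SE, adjusted p = 0.000206 by edgeR). It was lower in LM2 by -0.93 ± 0.18 (adjusted p = 0.0135), a call lost without Par replicate 2 (0.0584), Par replicate 3 (0.0606) or LM2 replicate 3 (0.0626).

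The copies did not share 1 pattern. SPANXB1 made up nearly all of the Par and LM2 reads, with 906, 1124 and 1522 counts in Par, 542, 749 and 702 in LM2 and 2573, 5624 and 5206 in BrM2. SPANXD had 0 counts in each Par library, 1, 2 and 4 in LM2 and 116, 172 and 167 in BrM2, which puts BrM2 at least 57.4-fold above Par. As a separate row it was called higher in LM2 than in Par, opposite to the sum of the copies. That log2 fold change was 4.15 ± 0.94 (SE, adjusted p = 0.0401 by edgeR) and rests on these few LM2 reads. SPANXC had 1, 1 and 4 counts in Par, 2, 2 and 3 in LM2 and 15, 35 and 19 in BrM2, a 13.1-fold rise by counts (95% counting interval 5.73 to 37.0). SPANXB1 was thus expressed in all 3 lines and 4.31-fold higher in BrM2 than in Par, while SPANXD and SPANXC were near or under the floor outside BrM2. SPANXA1 and SPANXA2 had at most 9 counts, all but 2 of them in BrM2. For SPANXB1, 19.4% of 50-base stretches occur in another gene, and for SPANXD 22.9%, SPANXC 67.4% and SPANXA2 100%, so the low counts of SPANXA1, SPANXA2 and SPANXC are the most uncertain.

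**Figure D3:**
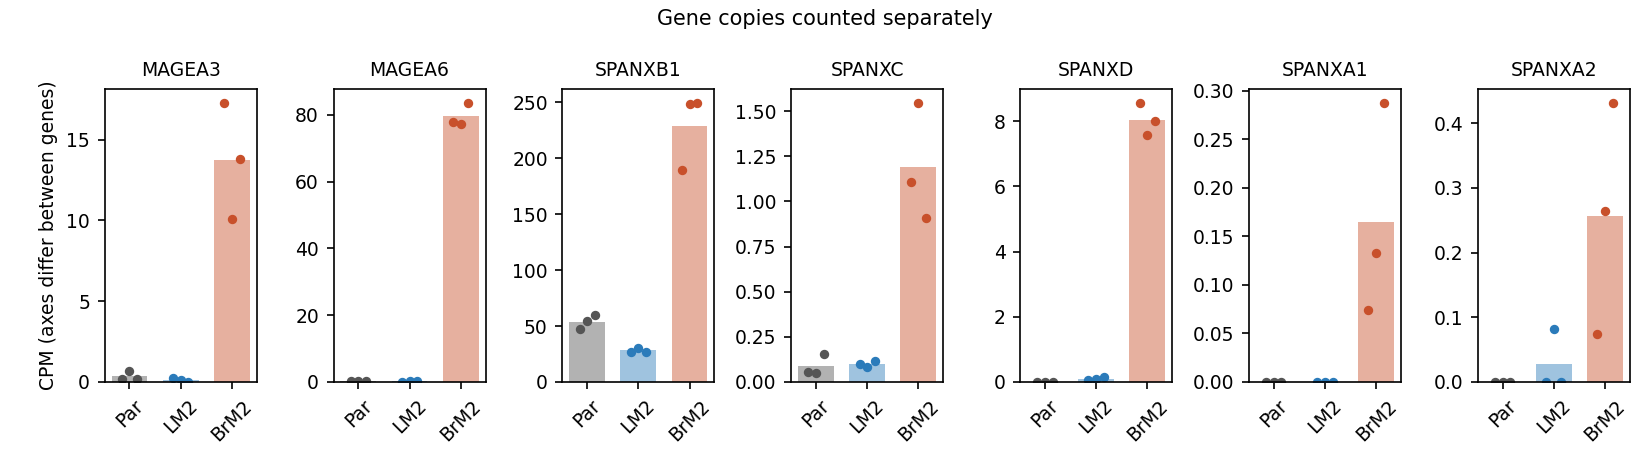
CPM of MAGEA3, MAGEA6 and the 5 SPANX copies counted as separate genes, with bars at the mean of 3 libraries per line, a point for each library in the order of the replicate numbers, and axes from 0 that differ between genes. SPANXB1 has a visible bar in each line, whereas MAGEA3, MAGEA6, SPANXC and SPANXD rise from near 0 in Par and LM2 to their BrM2 level.

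PAGE5, of the GAGE-related family, had 67, 39 and 64 counts in Par, 33, 20 and 12 in LM2 and 569, 855 and 647 in BrM2. It rose in BrM2 by 3.80 ± 0.44 on the log2 scale (SE, adjusted p = 0.000678 by edgeR). The LM2 libraries all lay below those of Par, with a log2 fold change of -1.46 ± 0.44 that missed the threshold (adjusted p = 0.0785). That value was 0.00253 with the replicate block and 0.0139 without LM2 replicate 1.

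SSX1, a repressor best known as a fusion partner of SS18 in synovial sarcoma, had 23, 16 and 15 counts in Par, 8, 3 and 2 in LM2 and 119, 167 and 147 in BrM2. It rose in BrM2 by 3.18 ± 0.45 on the log2 scale (SE, adjusted p = 0.0019 by edgeR). In LM2 it was lower by -2.13 ± 0.54 (adjusted p = 0.0422), and the call was kept in 2 of the 9 fits that leave out 1 library. The adjusted p was 0.130 without Par replicate 1, 0.109 without Par replicate 2, 0.0588 without Par replicate 3, 0.172 without LM2 replicate 2, 0.138 without LM2 replicate 3, 0.0778 without BrM2 replicate 2 and 0.0770 without BrM2 replicate 3. With the replicate block and all libraries it was 0.00318.

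Genes below the filter added to the BrM2 pattern. CTAG2, a close relative of NY-ESO-1, had 0 counts in the 6 Par and LM2 libraries and 24, 24 and 17 in BrM2, at least 8.67-fold above Par and at least 9.44-fold above LM2. XAGE2 had 0 counts in Par, 1 read in LM2 replicate 2 and 16, 38 and 24 in BrM2, at least 9.53-fold above Par. Both thus reached 10 counts in the BrM2 libraries alone. Of the CTAG2 stretches of 50 bases, 38.1% also occur in the CTAG1 genes, and none of those of XAGE2 occurs elsewhere. CT45A10 was the 1 detected CT45A row, with 1, 1 and 7 counts in BrM2.

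CT83 and XAGE1 went against this direction. CT83, also known as KK-LC-1, had 172, 169 and 191 counts in Par, 213, 219 and 214 in LM2 and 80, 116 and 106 in BrM2. In CPM it spanned 7.51 to 9.04 in Par, 8.20 to 10.6 in LM2 and 5.08 to 5.91 in BrM2, so BrM2 lay below both other lines. The log2 fold change of BrM2 against LM2 was -0.78 ± 0.20 (SE, adjusted p = 0.0479 by edgeR), and that against Par was -0.62 ± 0.20 (adjusted p = 0.0836, or 0.00771 with the replicate block). The call against LM2 was lost in each of the 9 fits that leave out 1 library, where the adjusted p lay between 0.0699 without Par replicate 1 and 0.191 without BrM2 replicate 3. For this comparison it was 0.00264 with the replicate block and 0.252 with no filter on low counts. XAGE1, the sum of 2 copies, had 25, 18 and 25 counts in Par, 11, 13 and 17 in LM2 and 6, 6 and 10 in BrM2, and the BrM2 level was 2.71-fold lower than Par by counts (95% counting interval 1.65 to 4.60). XAGE1 did not reach the filter, and with the filter of edgeR in its place the adjusted p was 0.0288, or 0.0854 with no filter.

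PAGE2 and GAGE10 were also lowest in BrM2, at very low counts. PAGE2 had 2, 6 and 5 counts in Par, 0, 3 and 3 in LM2 and 0, 1 and 0 in BrM2, and GAGE10, the 1 detected GAGE row, had 0, 1 and 3, then 1, 2 and 2, then 0 in BrM2. These counts lie at or near the floor, and no fold is given for them.

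Per kilobase of the longest annotated transcript, SPANXB1 was the most abundant of these genes in each line, at 116 ± 13.2 CPM per kb in Par, 60.3 ± 4.55 in LM2 and 492 ± 73.1 in BrM2 (SD, n = 3). In BrM2 it was followed by PAGE5 at 49.8 ± 7.48 and MAGEA6 at 45.7 ± 2.01 CPM per kb, whose libraries overlapped. SPANXD at 11.8 ± 0.714 and CT83 at 10.4 ± 0.900 also overlapped, as did MAGEA3 at 6.60 ± 1.72 and SSX1 at 6.32 ± 0.756. In Par, CT83 came second at 15.9 ± 1.48 CPM per kb and PAGE5 next at 3.56 ± 1.11. In LM2, CT83 at 17.9 ± 2.35 and MAGEB2 at 14.03 ± 4.24 CPM per kb overlapped below SPANXB1. As separate copies, the leading genes were thus SPANXB1 and CT83 in Par, and SPANXB1, PAGE5 and MAGEA6 in BrM2. Near-identical copies such as MAGEA3 and MAGEA6 were not added up here. Reads that map to several places are by default not counted, while the length used is that of the whole transcript. More of the 50-base stretches of MAGEA6 than of PAGE5 occur in another gene, so the order of MAGEA6 and PAGE5 in BrM2 is uncertain.

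The other genes of the X chromosome did not rise as a whole in BrM2. Among the 414 other tested genes of the X chromosome, 7.25% were higher and 19.1% lower in BrM2 than in Par, with a median log2 fold change of -0.36. Among all 12069 tested genes with a position apart from the members, the X-linked ones included, 6.13% were higher and 6.99% lower, with a median of -0.02. In LM2 against Par, 3.62% of the X-linked genes were higher and 11.1% lower, with a median of -0.04. Among all tested genes with a position, 3.99% were higher and 4.44% lower in LM2, with a median of 0.01. The members that rose in BrM2 therefore did so on a chromosome whose other genes were more often lower, a shift whose part in the members' values was not tested.

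**Figure D4:**
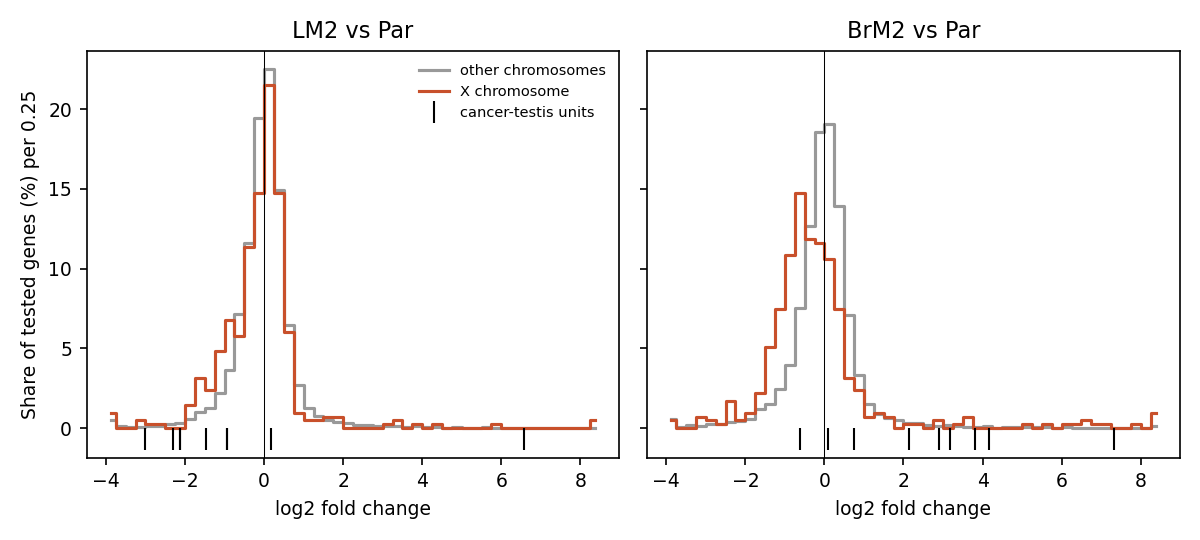
Share of tested genes per step of log2 fold change for LM2 against Par and BrM2 against Par, for the 414 other genes of the X chromosome and for genes of the other chromosomes, with ticks for the 9 cancer-testis units and values past the ends of the axis counted in the end steps. In BrM2 the X-chromosome line lies to the left of the grey line, with a median of -0.36, while 6 ticks lie at 2.14 or above.

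Within 500 kb of the 12 gene copies of the tested units that had at least 10 counts in a library, 24 other genes were tested. Of these, 2 were higher and 0 lower in LM2 against Par, and 4 were higher and 4 lower in BrM2 against Par. Of all features, 4.16% were called higher and 4.5% lower in LM2, and 6.23% and 6.99% in BrM2. All 8 are named after their values were seen. GABRA3, which encodes the alpha3 subunit of the GABA-A receptor and lies next to the MAGEA3 and MAGEA6 cluster (chrX:152166234-152451315), rose from a mean of 0.151 CPM in Par to 14.6 in BrM2 (log2 fold change 6.52 ± 0.58, adjusted p = 0.000211 by edgeR) and was at 0.0904 CPM in LM2. LINC00632, beside SPANXB1 and the host of a circular RNA antisense to CDR1, had a mean of 0.0437 CPM in Par, 0.565 in LM2 and 11.9 in BrM2. LDOC1, between SPANXB1 and SPANXC, rose in both sub-populations, by 1.78 ± 0.34 in LM2 and 2.13 ± 0.34 in BrM2 (adjusted p = 0.0115 and 0.00363). The lysosomal sulfatase gene IDS, near MAGEA11, rose in BrM2 by 0.85 ± 0.20 (adjusted p = 0.024). Near SSX1 the direction was the opposite, with ZNF630 (-3.03 ± 0.52), EBP (-1.48 ± 0.42) and RBM3 (-0.90 ± 0.21) lower in BrM2 on the log2 scale, and RRAGB, near PAGE5, was lower by -0.90 ± 0.24.

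Other cancer-testis genes were mostly undetected or under the filter. Of 38 further X-linked cancer-testis genes, 16 had no count and 1 passed the filter. That gene, IL13RA2, a decoy receptor of interleukin 13, had 0 counts in each Par library, 95, 338 and 346 in LM2 and 38, 145 and 102 in BrM2. It was thus detected in both sub-populations and not in Par, a pattern that none of the 9 units showed. Of the copies within the units, SPANXD also had no count in Par, with 1, 2 and 4 counts in LM2. For IL13RA2, LM2 and BrM2 did not differ past the threshold (adjusted p = 0.237 by edgeR, or 0.00271 with the replicate block). Of 83 mostly autosomal cancer-testis and germ-cell genes, 75 were in the table and 13 were tested, of which 2 were higher and 0 lower in LM2 against Par, and 1 was higher and 3 lower in BrM2 against Par. With the replicate block these were 4 and 3 in LM2, and 1 and 5 in BrM2. The shares called among all features, against which this and the following lists are to be read, were 8.66% in LM2 and 13.2% in BrM2, or 34.5% and 42.7% with the block. PLAC1, the X-linked placental gene in that list, rose in both, by 1.31 ± 0.29 in LM2 and 2.31 ± 0.29 in BrM2. CABYR, a sperm fibrous sheath protein, rose in LM2 by 1.01 ± 0.27 (adjusted p = 0.0496), while the log2 fold change in BrM2 was -1.56 for SPAG4, -0.83 for KDM5B and -1.69 for MAEL, which is named after its values were seen.

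Of 47 factors of DNA methylation and of silencing at germline promoters, 45 were tested, with 0 past the threshold in LM2 against Par by edgeR, or 6 higher and 3 lower with the replicate block, and 3 higher and 2 lower in BrM2 against Par, or 10 and 6 with the block, which is no larger a share than among all features. The de novo methyltransferase genes DNMT3A and DNMT3B rose in BrM2 by 0.96 ± 0.21 and 1.30 ± 0.19 on the log2 scale (SE, adjusted p = 0.0156 and 0.00218), and so did TET3 (0.96 ± 0.24), whose product oxidizes methylcytosine. The maintenance methyltransferase gene DNMT1 had 456 ± 66.3 CPM in Par, 601 ± 107 in LM2 and 724 ± 95.7 in BrM2 (SD, n = 3), with an adjusted p of 0.0638 for BrM2 against Par, or 0.00154 with the replicate block. Its partner UHRF1 did not pass the test (-0.42 ± 0.31, adjusted p = 0.484). KDM5C, an X-linked histone H3K4 demethylase, was lower in BrM2, at -1.23 ± 0.24 on the log2 scale (adjusted p = 0.00958). CTCFL, a germline factor that can act at these promoters, had 0 counts in all 9 libraries.

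Of 11 other genes with a MAGE homology domain, 6 were tested, with 0 called in LM2 against Par and 1 lower in BrM2 against Par by edgeR, where the replicate block gave 1 lower in LM2, and 1 higher and 2 lower in BrM2. The call in BrM2 was MAGED1, an adaptor expressed widely outside the germ line, at a log2 fold change of -1.85 ± 0.40 (adjusted p = 0.016), opposite to MAGEA3 and MAGEA6. Of 22 partners of MAGE proteins, 21 were tested, and 1 was lower in each sub-population, the ubiquitin ligase gene PJA1 at -0.84 ± 0.18 in LM2 and -0.66 ± 0.18 in BrM2, with 2 higher and 2 lower in LM2 and 3 higher and 1 lower in BrM2 under the replicate block. Of 16 relatives and partners of PRAME, 9 were tested, 0 passed in LM2 by edgeR (1 lower with the replicate block) and 1 rose in BrM2 (1 higher and 2 lower with the block), the retinoic acid receptor gene RARB, named after its values were seen, from 1, 5 and 4 counts in Par to 26, 75 and 67.

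The labelled cell type was checked against its markers. The simple keratin genes KRT8 and KRT18 had at least 6882 counts in every library, while CDH1 had 3 to 37, ESR1 2 to 16 and PGR 0 to 4, as is known of this claudin-low line. Of 15 breast epithelial markers, 10 were tested, with 2 higher and 4 lower in LM2 and 2 higher and 2 lower in BrM2 against Par (2 and 7, and 2 and 5, with the replicate block). Of 13 mesenchymal and claudin-low markers, 10 were tested, with 2 higher and 1 lower in LM2 and 2 higher and 3 lower in BrM2 (5 and 3, and 2 and 3, with the block). This list mixes mesenchymal genes with the claudin genes CLDN3, CLDN4 and CLDN7, whose low levels mark the claudin-low state. These counts therefore do not show whether that state was kept. The 7 leukocyte markers summed to 2.75 to 5.20 CPM in Par, 1.69 to 3.13 in LM2 and 1.28 to 3.47 in BrM2, with CD14 tested and 0 called in either comparison by edgeR (1 lower in each with the block), and CD3E had at most 1 count. The 7 endothelial and fibroblast markers summed to 35.3 to 36.5, 6.45 to 13.0 and 9.54 to 14.2 CPM, with 2 tested and 1 lower in each sub-population (2 with the block). The part of these markers in the members' values was not tested.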

How the data were processed

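RNA-seq was analysed in 9 libraries, 3 each of Par, LM2 and BrM2. Per the labels and the study's methods, the authors made stranded mRNA libraries, called bases with CASAVA 1.8.2, aligned paired-end reads to hg38 and obtained a count for each gene with STAR 2.7.0. They deposited whole-number counts without normalization. The strand counted is not given in the sources used here, and reads that map to several places are by default not counted, which can lower the counts of near-identical copies. The authors also deposited their own DESeq2 fold changes and adjusted p-values, which were not used.

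Counts of 3 repeated identifiers and of near-identical copies were added up. A filter written after HTSFilter kept the 12999 features whose largest normalized count exceeded 49.2. Counts were tested in edgeR 4.0.16 (R 4.3.3, limma 3.58.1) with TMM normalization and the 2-sided quasi-likelihood test on all 9 libraries, with Benjamini-Hochberg adjustment over all features and a threshold of 0.05. Each standard error of a log2 fold change was derived as its absolute value divided by the square root of the F statistic of that test. It is approximate, above all where a line held few reads. Ratios of counts under the filter carry exact 95% intervals for counting error only, and a fold against a line at 0 uses a floor of 3 counts per library. Depth sets this limit of 0.115 to 0.221 CPM.

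Same-numbered libraries of different lines deviated together across genes, with correlations from 0.23 to 0.90 in all 9 pairs. The replicate number was therefore taken as pairing them in an alternative fit, the replicate block. The main fit holds no block, so p-values given without mention of the block ignore this pairing. The pairing comes from the data, since the methods name only different passages. The common dispersion was 0.11 without and 0.0207 with the number as a block. The p-values without the block measure the spread between passages, including the part that same-numbered libraries share. Those with the block measure what is left of this spread once that part is removed.

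Positions and start regions came from RefSeq (GRCh38.p14), with 75 and 61 of 76 members matched, and transcript lengths and shared 50-base stretches from GENCODE 44, matched for 70. No coordinate was taken from the latter. Every unit past the filter is named, as are units with at least 10 counts in a library, copies likewise, and up to 4 called genes of each other list with a mean of at least 50 counts, plus DNMT1, DNMT3A, DNMT3B, UHRF1 and CTCFL. The members and lists were chosen with earlier results of these data known. The alternatives were separate copies, RLE factors, DESeq2 1.42.0, filterByExpr, no filter, the replicate block, and leaving out each library or each replicate number. Python 3.11.15, pandas 2.3.3, Biopython 1.88 and matplotlib 3.10.9 were used besides.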

Additional observations from a re-analysis of the deposited data

Results flagged for a closer look

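The 2 sub-populations differed from each other in each of the 9 units past the filter, by the edgeR test of BrM2 against LM2, which is the test of the difference between their changes from Par (adjusted p from 4.17e-05 to 0.0479, background 8.07%). Units that passed the filter through BrM2 or LM2 libraries alone, named above, favour such a difference by their entry. The log2 difference of BrM2 from LM2 was 8.26 for MAGEA3 and MAGEA6, 7.18 for MAGEA11, 5.31 for SSX1, 5.26 for PAGE5, 5.01 for MAGEC1, 3.08 for the SPANX copies and 2.39 for MAGEC2. The 2 units higher in LM2 were MAGEB2, at -5.81, and CT83, at -0.78. The call of CT83 was lost in each of the 9 fits that leave out 1 library. With no filter on low counts its adjusted p was 0.252 by edgeR. The fitted value of MAGEA11 depends on the prior count, since LM2 held 2 reads in all, and by counts BrM2 was 171-fold higher with a 95% counting interval of 46.8 to 1415. In 7 of the 9 units the fitted change from Par was negative in LM2 and positive in BrM2, although both changes passed the test for 3 of them (SPANX, SSX1 and MAGEC1), and the change of MAGEC2 in BrM2 turned sign with the libraries used. The share of all features with these signs was not computed. Units that entered through BrM2 libraries alone favour a positive change there, so this count is a description only.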

How the results depend on the processing

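The number of units called in LM2 against Par, BrM2 against Par and BrM2 against LM2 was 5, 6 and 9. It was 6, 8 and 11 with separate copies, 4, 6 and 8 with RLE factors, 7, 7 and 9 with DESeq2, 6, 9 and 11 with filterByExpr, 7, 9 and 12 with no filter, and 7, 7 and 9 with the replicate block. The main fit, RLE factors, DESeq2 and the block tested the same 9 units. Separate copies, filterByExpr and no filter tested other sets, so their counts are not shares of 9. Leaving out 1 library gave 2 to 5, 6 and 8. Leaving replicate 1, 2 or 3 out of every line gave 5, 1 and 1 units in LM2 against Par, 7, 2 and 3 in BrM2 against Par and 9, 3 and 7 in BrM2 against LM2. MAGEA3 with MAGEA6, the SPANX copies in both BrM2 comparisons, and MAGEB2 in both LM2 comparisons kept their calls under each alternative that gave them a value, which keeping the copies separate did not for the summed units. Among all features, 1126, 1718 and 1049 were called. DESeq2 called 1885, 2505 and 1810, and the replicate block 4489, 5549 and 4880. In LM2 against Par, separate copies called 1125 features, RLE factors 1086, filterByExpr 1314 and no filter 1498. Leaving out 1 library gave 585 to 1253, 936 to 2098 and 538 to 1203, and leaving out a replicate number 70 to 4300, 158 to 5246 and 53 to 4238. The sign of MAGEC2 in BrM2 against Par reversed to between -0.13 and -0.02 when Par replicate 1 or 3, BrM2 replicate 1 or 2, or replicate 1 of every line was left out (-0.05613, -0.1257, -0.02202, -0.04312 and -0.1325), while leaving out single libraries gave -0.1257 to 0.5008, and the cause was not tested. The replicate block as pairing added the calls of PAGE5 and MAGEA11 in LM2 and CT83 in BrM2 against Par, and changed no other call of a unit. Where leaving out replicates leaves a line with fewer libraries, fewer samples enter the fit. Depth limits the units under 10 counts, of which MAGEB1 was called in BrM2 against Par with no filter (adjusted p = 0.0195).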
